A study of Mus musculus with 6 samples.

Results

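The dystrophin-glycoprotein complex was described here by the RNA of 8 genes, chosen by name: Dmd, Utrn, Dag1, Sgca, Sgcb, Sgcd, Sgce and Dtna. All 8 were among the 17558 genes of the deposited table, and 7 of them had enough reads to be tested. Dmd did not. The samples were 6 RNA-seq libraries of C2C12 cells, an immortalized mouse myoblast line that fuses into myotubes when serum is lowered. All cells were harvested 48 h after a change to differentiation medium with horse serum, insulin, transferrin and selenium. Each group had 2 libraries, and every group carried a stably introduced short hairpin RNA: a scrambled, non-targeting one (shScr), one against the pyruvate kinase isoform Pkm1 (shPkm1) or one against the isoform Pkm2 (shPkm2). The question was what either hairpin does to differentiating myoblasts. How many hairpins or clones each line came from is not given in the sources used here. Nothing says that the libraries of a group came from separate cultures, so p-values measure only the spread between these libraries.

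The complex links the actin cytoskeleton of a muscle fibre to the laminin around it and protects the membrane during contraction. Dystrophin (Dmd) binds actin inside the cell and beta-dystroglycan at the membrane, and utrophin (Utrn) is its widely expressed relative. Dystroglycan (Dag1) spans the membrane and, once its outer subunit carries a special sugar chain, binds laminin. The sarcoglycans are small membrane proteins that assemble around it: alpha-sarcoglycan (Sgca) is largely restricted to striated muscle, epsilon-sarcoglycan (Sgce) is its broadly expressed relative, and beta- and delta-sarcoglycan (Sgcb, Sgcd) form the core. Alpha-dystrobrevin (Dtna) sits on the inner face and holds syntrophins. Loss of single members causes muscular dystrophies.

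The libraries held 18216896 to 19796036 estimated counts. In CPM, counts relative to library size after scaling by the trimmed mean of M values, the Pkm1 transcript was at 980 and 958 in shScr, 315 and 300 in shPkm1, and 313 and 334 in the shPkm2-labelled libraries. The Pkm2 transcript was at 1927 and 2468 CPM in shScr, 1656 and 1895 in shPkm1, and 3330 and 3452 in the shPkm2-labelled libraries. The target of the second hairpin was therefore not lower where its label predicts, and those libraries are named by their label only. Summed CPM of 10 genes of muscle differentiation ran from 25100 to 37300 in shScr, from 8380 to 9670 in shPkm1 and from 191 to 196 in the shPkm2-labelled libraries. For 10 proliferation genes the sums were 439 to 500, 835 to 851 and 2250 to 2380, and for 6 myoblast genes 6800 to 7140, 4400 to 4900 and 1640 to 1710. Myog, a driver of differentiation, had log2 differences of -0.94 and -5.35 from shScr, and the proliferation marker Mki67 rose by 1.46 and 2.90. Des carried most of the myoblast sum, at 5021 ± 317 CPM (SD, n = 2) in shScr, and Myf5 of the same list rose in the shPkm2-labelled libraries, from 18.5 ± 0.36 to 61.5 ± 1.32 CPM (log2 difference 1.74, adjusted p = 9.39e-09). Markers of other cell types were low but not level: sums ran from 14.5 to 21.2, 39.5 to 45.7 and 40.2 to 44.6 CPM for 5 osteoblast genes, from 15.8 to 25.4, 21.4 to 22.4 and 61.1 to 64.4 for 5 adipocyte genes, and from 1.14 to 1.98, 3.94 to 4.63 and 1.98 to 2.58 for 5 leukocyte genes, in the order shScr, shPkm1, shPkm2. Of 2 tested osteoblast genes 1 was called higher in each hairpin group (Runx2, 1.26 and 1.27), of 2 adipocyte genes 1 in each (Pparg by 0.88 in shPkm1, Lpl by 1.73 in the shPkm2-labelled pair), and of 3 leukocyte genes 3 were higher in shPkm1, and 1 was higher and 1 lower in the shPkm2-labelled pair. These marker genes were named after their values were seen. Ibsp, Ptprc and Adgre1 were at 0 or unlisted in every group. The part of these marker differences in the results that follow was not tested, and in such bulk samples fewer muscle-like cells cannot be told apart from less RNA per cell.

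Promoter sequence is shown for 3 members: Sgca and Dag1, which were lower together in both hairpin groups, and the muscle start of Dmd, which was almost unread. The bases before the start were taken from RefSeq on GRCm38.p6. Windows of 6 of the 8 members were searched, and any window of Dtna was left out. They lie at chr11:94976328-94976577 on the minus strand for Sgca, at chr9:108263978-108264208 on the minus strand for Dag1 and at chrX:82948620-82948869 on the plus strand for Dmd. For Dag1 the 19 bases next to the start are left out, because another Dag1 transcript covers them. Capitals mark E-boxes (CANNTG, which reads the same on both strands), the core bound by MyoD and myogenin, and in Dmd also a CArG box, the core bound by serum response factor.
Sgca: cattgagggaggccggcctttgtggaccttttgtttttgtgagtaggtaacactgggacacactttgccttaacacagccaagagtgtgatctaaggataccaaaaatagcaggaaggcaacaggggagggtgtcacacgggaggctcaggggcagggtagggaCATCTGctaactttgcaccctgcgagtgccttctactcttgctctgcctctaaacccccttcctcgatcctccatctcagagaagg
Dag1: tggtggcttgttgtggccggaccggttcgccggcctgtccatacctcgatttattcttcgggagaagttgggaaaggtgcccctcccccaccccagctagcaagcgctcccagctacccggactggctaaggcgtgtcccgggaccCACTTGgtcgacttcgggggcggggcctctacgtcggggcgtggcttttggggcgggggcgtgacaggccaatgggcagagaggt
Dmd: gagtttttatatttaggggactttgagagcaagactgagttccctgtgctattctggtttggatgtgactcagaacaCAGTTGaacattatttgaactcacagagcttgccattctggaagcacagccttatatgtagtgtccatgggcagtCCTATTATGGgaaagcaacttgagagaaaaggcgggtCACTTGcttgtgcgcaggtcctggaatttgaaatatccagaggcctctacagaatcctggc
Sgca holds 1 E-box, which begins 86 bases before the start, and no GC box (GGGCGG on either strand). Dag1 holds 1 E-box, 104 bases before the start, and 3 GC boxes, 1 of them in the bases left out. Dmd holds E-boxes 173 and 61 bases before the start and the CArG box 98 bases before it. Over the 250 bases before all 32851 RefSeq starts, 66.2% held an E-box, 32.7% a GC box, 13.0% the E-box CAGCTG and 1.47% a CArG box. Of the 8 windows searched for these 6 members, 6 held an E-box and none held CAGCTG. These are matches of letters and not measured binding sites.

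Dmd RNA was barely present in any group, although the control cells expressed a muscle programme. The gene lies at chrX:82814664-85205050. It had 5 and 5 estimated counts in shScr, 7 and 6 in shPkm1, and 0 and 0 in the shPkm2-labelled libraries. That is 0.271 and 0.259 CPM in shScr and 0.384 and 0.303 in shPkm1, relative to plain library totals. On that scale 3 counts, taken as the upper limit for a count of 0, are worth 0.152 to 0.165. Control and shPkm1 libraries lay 1 or 2 counts apart, and both lay above the zeros of the shPkm2-labelled libraries. That floor of 3 counts per library was 0.158 CPM in the pair labelled shPkm2. Mean Dmd was 1.68 times this floor in shScr and 2.18 times in shPkm1. The counting error of the 5 to 7 counts in those groups is left out, so these are not lower bounds of a fold. The floor covers counting error of the zeros only, and intervals of shares cover counting error only. Dmd was under the filter on low counts and so outside the main test. In edgeR without that filter Dmd was called lower in the shPkm2-labelled libraries than in shScr (adjusted p = 0.00692) and than in shPkm1 (adjusted p = 0.00565), and not between shPkm1 and shScr (adjusted p = 0.881). With limma on log2(TPM + 1) without a filter none of the 3 comparisons of Dmd passed (adjusted p = 0.383, 0.174 and 0.527 in that order). Dmd was at 0 to 0.08 TPM, and the added 1 shrinks differences between such values (-0.06, -0.11 and 0.05 in that order). This fit therefore cannot decide whether Dmd differed.

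The table lists 6 Dmd transcripts, and the full-length muscle one (NM_007868.6) took 4.99 of 5 counts in shScr 1, 2.95 of 5 in shScr 2, 3.35 of 7 in shPkm1 1 and 1.67 of 6 in shPkm1 2. Its share was 99.8% (exact 95% interval on rounded counts 47.8 to 100) and 59.0% (14.7 to 94.7) in shScr, and 47.9% (9.90 to 81.6) and 27.8% (4.33 to 77.7) in shPkm1. The mean share in shPkm1, 37.8% of counts, was 18.8% of TPM and 100% of the counts of curated transcripts. All 4 exact intervals overlap, and a difference in the share was not tested. The intervals leave out the uncertainty of assigning reads to transcripts.

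Utrn, at chr10:12382187-12869888, differed little between the groups. Its level was 116 and 107 CPM in shScr, 91.4 and 95.8 in shPkm1, and 106 and 93.2 in the shPkm2-labelled libraries. The shPkm1 libraries lay below both controls, and of the shPkm2-labelled pair 1 lay among the shPkm1 values and the other just below the controls. The difference of shPkm1 from shScr was -0.25 on the log2 scale (SE 0.102, adjusted p = 0.0457), and that of the shPkm2-labelled libraries was -0.16 (SE 0.102, adjusted p = 0.175). The call in shPkm1 is not stable: it was lost under 10 edgeR and DESeq2 alternatives, among them the replicate block (adjusted p = 0.0534) and the removal of any library but shScr replicate 2 (0.0787 to 0.246). In TPM, which corrects for transcript length but not for composition, Utrn was at 14.6 and 14.98, 16.01 and 15.3, and 19.1 and 16.3 in the same order, and on log2(TPM + 1) with limma the differences from shScr changed sign to 0.08 and 0.24. Between the hairpin groups Utrn differed by 0.09 (95% interval -0.13 to 0.31).

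Dag1, at chr9:108204861-108263977, was the most abundant member and fell in steps. It stood at 1099 and 1130 CPM in shScr, 555 and 558 in shPkm1, and 254 and 241 in the shPkm2-labelled libraries. The groups were far apart compared with the gap between the libraries of a pair. Dag1 was 2.00-fold lower under the Pkm1 hairpin (log2 difference -1.0, SE 0.106, adjusted p = 3.43e-06) and 4.5-fold lower in the shPkm2-labelled libraries (-2.17, SE 0.11, adjusted p = 1.58e-09). Directly compared, the hairpin groups differed by -1.17 (SE 0.107, adjusted p = 9.59e-07).

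Sgca, at chr11:94962777-94976327, had the largest fall of any tested member in the shPkm2-labelled libraries. Its level was 192 and 158 CPM in shScr, 95.8 and 106 in shPkm1, and 17.0 and 17.6 in the shPkm2-labelled libraries. No groups overlapped, and the pair labelled shPkm2 lay lowest. The fall was 1.73-fold under the Pkm1 hairpin (log2 difference -0.79, SE 0.111, adjusted p = 4.28e-05) and 10.1-fold in the shPkm2-labelled libraries (-3.34, SE 0.126, adjusted p = 9.77e-11). Between the hairpin groups the difference was -2.55 (SE 0.124, adjusted p = 1.91e-09).

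Sgcb, at chr5:73632749-73647737, was lower only in the shPkm2-labelled libraries. Its values were 91.4 and 84.6 CPM in shScr, 94.4 and 84.1 in shPkm1, and 50.6 and 50 in the shPkm2-labelled libraries. Control and shPkm1 libraries interleaved. The difference of shPkm1 was 0.02 (95% interval -0.19 to 0.23), and the difference of the shPkm2-labelled libraries was -0.81 (SE 0.101, adjusted p = 1.05e-05). The hairpin groups differed by -0.83 (SE 0.101, adjusted p = 1.37e-05). On log2(TPM + 1) with limma the shPkm1 difference became 0.40 (adjusted p = 0.0177), on a scale where the median of all genes rose by 0.31. The shPkm2-labelled difference missed the threshold with limma on log2(TPM + 0.1) (-0.35, adjusted p = 0.0557).

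Sgcd, at chr11:46971077-47989451, rose in shPkm1 alone. It had 9.83 and 6.61 CPM in shScr, 53.0 and 46.5 in shPkm1, and 8.85 and 6.06 in the shPkm2-labelled libraries. Both shPkm1 libraries were several times above all others, and the other groups overlapped. The rise in shPkm1 was 6.08-fold (log2 difference 2.61, SE 0.184, adjusted p = 9.4e-08). In the shPkm2-labelled libraries the difference from shScr was -0.13 (SE 0.207, adjusted p = 0.59, 95% interval -0.58 to 0.32). Tested directly, Sgcd was 6.66-fold lower in the shPkm2-labelled libraries than in shPkm1 (-2.74, SE 0.182, adjusted p = 4.28e-08).

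Sgce, at chr6:4674350-4747204, was slightly higher in both hairpin groups. It stood at 42.7 and 48.5 CPM in shScr, 56.5 and 56.5 in shPkm1, and 59.2 and 60.5 in the shPkm2-labelled libraries. Both controls lay below the other 4 libraries. The rise was 0.31 on the log2 scale in shPkm1 (SE 0.101, adjusted p = 0.0168). It was 0.39 in the shPkm2-labelled libraries (SE 0.1, adjusted p = 0.00364). The first of these calls was lost without shScr replicate 1 (0.22, adjusted p = 0.0812), without shPkm1 replicate 1 (0.32, adjusted p = 0.0696) and without shPkm1 replicate 2 (0.31, adjusted p = 0.0686). Between the hairpin groups the difference was 0.08 (95% interval -0.13 to 0.30).

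Dtna, on chromosome 18, fell in both hairpin groups. Its level was 90.1 and 67.7 CPM in shScr, 57.3 and 53.2 in shPkm1, and 38.7 and 37.5 in the shPkm2-labelled libraries. The groups did not overlap, and the controls were the widest pair. The log2 difference from shScr was -0.51 for shPkm1 (SE 0.125, adjusted p = 0.003) and -1.05 for the shPkm2-labelled libraries (SE 0.127, adjusted p = 7.66e-06), with a direct difference of -0.54 (SE 0.127, adjusted p = 0.003). With limma on log2(TPM + 1) the shPkm1 difference was -0.35 (adjusted p = 0.0766), and without a filter the direct one was -0.60 (adjusted p = 0.0519).

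**Figure D1:**
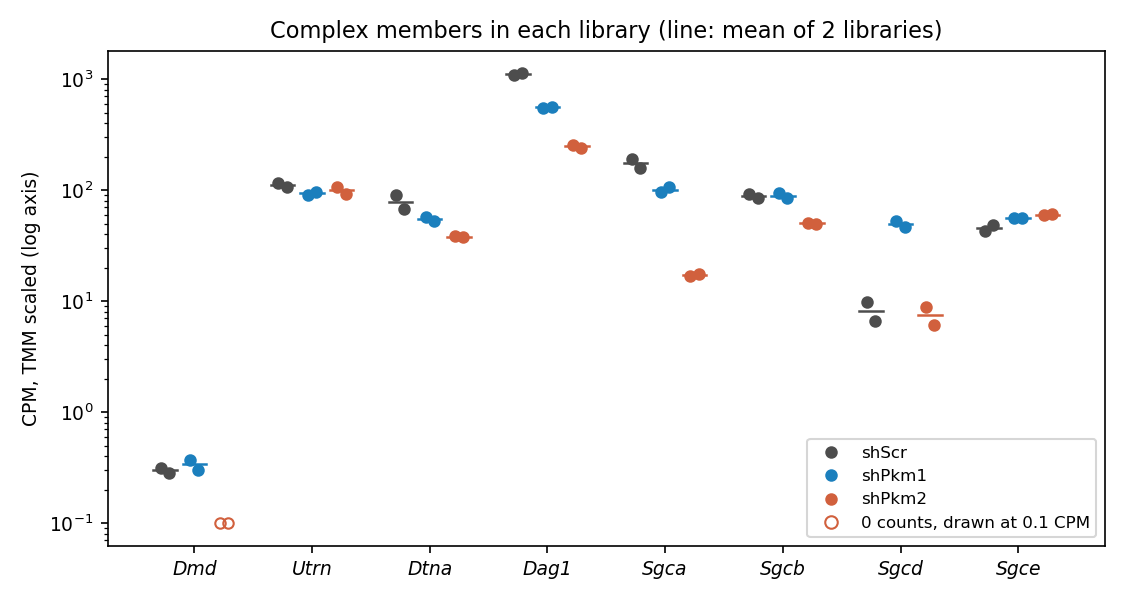
CPM of the 8 members in each library on a log axis, as points, with a line at the mean of the 2 libraries of a group. Dag1 and Sgca step down from shScr over shPkm1 to the shPkm2-labelled libraries, Sgcd is high in shPkm1 alone, and the open points at 0.1 stand for the 0 counts of Dmd.

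Counted together, 2 of the 7 tested members were higher and 4 lower in shPkm1 than in shScr, where 31.8% of all 12643 tested genes were higher and 31.4% lower. Against shScr the shPkm2-labelled libraries had 1 member higher and 4 lower, beside 33.9% and 34.2% of all genes. In either direction, 6 and 5 of the 7 members were called, beside 63.1% and 68.0% of all genes. The 2 risen members in shPkm1 became 1 without shScr replicate 1 or either shPkm1 library, and the 4 fallen became 2 with limma on log2(TPM + 1). Between the hairpin groups 0 members were higher and 5 lower in the shPkm2-labelled libraries, beside 25.7% and 27.3%. Without a filter on low counts, which let Dmd into the fit, the members lower in the shPkm2-labelled libraries were 5 against shScr and 6 against shPkm1. For the latter comparison edgeR also gave 0 higher at an unadjusted p under 0.05, as did DESeq2. The median log2 difference of the 7 members was -0.25, -0.81 and -0.83 in these 3 comparisons, and that of all tested genes 0.00, 0.01 and 0.00. With about 1 gene in 3 called in each direction against shScr, the counts of so few members say little beyond the genes themselves. The first and second comparison share their controls.

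**Figure D2:**
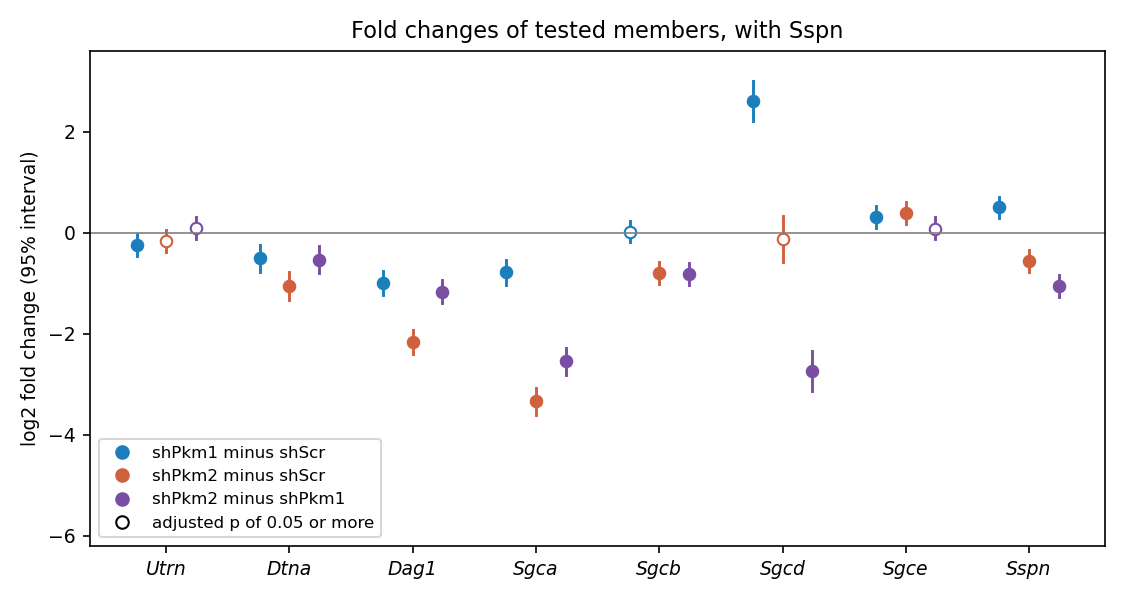
Log2 differences with 95% intervals of the 7 tested members and of Sspn in the 3 comparisons. Open points missed the threshold of 0.05 on the adjusted p, and Sgca reaches -3.34 in the shPkm2-labelled libraries.

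Per length, the order of the members changed between groups. In shScr the mean TPM ran from Dag1 (283 ± 29.2, SD, n = 2) over Sgca (163 ± 10.4), Sgce (38.5 ± 6.73), Sgcb (32.8 ± 1.004), Dtna (26.1 ± 5.98), Utrn (14.8 ± 0.255) and Sgcd (3.34 ± 0.375) to Dmd (0.045 ± 0.0212). The ranges of neighbours in this order did not overlap. In shPkm1 Sgcd moved up to 18.8 ± 2.35 TPM, level with Dtna at 20.02 ± 1.62, whose range it overlapped, and above Utrn at 15.7 ± 0.474. In the shPkm2-labelled libraries Sgce (68.9 ± 1.63 TPM) followed directly on Dag1 (86.6 ± 6.41), and Sgca (21.9 ± 0.311) lay below Sgcb (25.7 ± 1.17). The ratio of Dag1 to Utrn in TPM, free of the scaling of libraries, was 18 and 20.3 in shScr, 11.9 and 11.8 in shPkm1, and 4.77 and 5.03 in the shPkm2-labelled libraries.

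The mixture of sarcoglycans was followed as the summed TPM of the 4 sarcoglycan members, and each member as a share of that sum. The sum was 239.2 and 235 in shScr, 249.8 and 243.9 in shPkm1, and 122.2 and 117.3 in the shPkm2-labelled libraries. These sums are not corrected for composition. On log2(TPM + 1) the median difference of all genes from shScr was 0.31 in shPkm1 and 0.36 in the shPkm2-labelled libraries. Sgca made up 71.0% and 66.0% of it in shScr, 47.3% and 51.8% in shPkm1, and 18.1% and 18.5% in the shPkm2-labelled libraries. For Sgce the shares were 14.1% and 18.4%, 25.6% and 24.8%, and 57.3% and 57.7%. In the shPkm2-labelled libraries Sgce, the broadly expressed subunit, was the most abundant of the 4, and in all others Sgca was. The ratio of Sgce to Sgca, which no scaling of libraries changes, was 0.198 and 0.279, 0.541 and 0.479, and 3.17 and 3.12. Sgcd held 1.51% and 1.31% of the sum in shScr, 8.2% and 7.03% in shPkm1, and 2.83% and 2.57% in the shPkm2-labelled libraries.

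**Figure D3:**
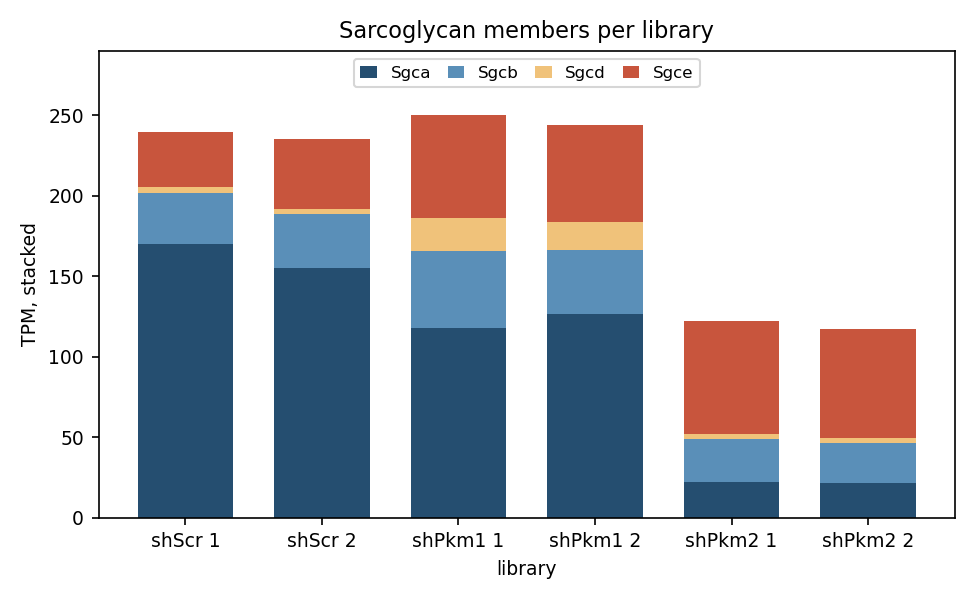
TPM of the 4 sarcoglycan members stacked per library, not corrected for composition. The sum lies between 235 and 249.8 in shScr and shPkm1, with a larger Sgcd and Sgce part in shPkm1, and in the 2 shPkm2-labelled libraries Sgce is the largest part.

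Estimated counts were also tested per transcript, over 33433 transcripts. The members have 80 transcripts in the table, and 28 with a mean of at least 50 counts passed the filter. Of these, 2 were higher and 2 lower in shPkm1 than in shScr, beside 8.65% and 8.7% of the 19706 tested transcripts with the same minimum mean and 5.47% and 5.36% of all tested transcripts. DESeq2 called 5 higher and 8 lower there, as many as edgeR gave at an unadjusted p under 0.05. Against shScr, the shPkm2-labelled libraries had 2 higher and 11 lower, beside 12.5% and 14.6% with the same minimum and 7.91% and 9.32% of all. Between the hairpin groups 0 were higher and 9 lower in the shPkm2-labelled libraries, beside 4.65% and 8.12% with the same minimum and 2.87% and 5.04% of all, with 1 higher at an unadjusted p under 0.05 in edgeR and 1 called higher by DESeq2. Leaving out shPkm1 replicate 1 or 2 left 0 and 0 calls in shPkm1 against shScr, and 2 and 1 lower between the hairpin groups, where removing shPkm2 replicate 1 or 2 left 2 and 3. Without either control library 1 was lower in shPkm1. Against shScr, the shPkm2-labelled pair had 0 or 1 higher without shScr replicate 1 or any of the hairpin libraries, and 7 lower without shScr replicate 1 or shPkm2 replicate 2. The 4 transcripts called in shPkm1 against shScr are named below, chosen after their values were seen. Transcripts of a gene share exons, so the split of reads between them is an estimate.

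For Dag1, the transcript NM_001276486.1, which begins at the start shown above, held 10276 and 11435 estimated counts in shScr, 3307 and 3827 in shPkm1, and 839 and 1298 in the shPkm2-labelled libraries. Its share of all Dag1 counts was 59.3% and 57.2%, 31.7% and 34.7%, and 15.5% and 25.7%. The log2 difference was -1.78 for shPkm1 (SE 0.229, adjusted p = 0.0168) and -3.65 for the shPkm2-labelled libraries (SE 0.247, adjusted p = 0.00222). The call in shPkm1 was lost without either control or either shPkm1 library, at differences of -1.87 to -1.71. The predicted Dag1 transcript XM_006511636.2 did not fall alongside, with 1127 and 1135 counts in shScr, 2938 and 1599 in shPkm1, and 1892 and 1347 in the shPkm2-labelled libraries.

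For Sgca, the transcript NM_009161.4 had 1297 and 1415 counts in shScr, 978 and 1006 in shPkm1, and 183 and 183 in the shPkm2-labelled libraries, a difference of -0.62 and -3.19 from shScr (SE 0.0676 and 0.0744, adjusted p = 0.012 and 0.000549). It kept 42.7% to 54.3% of the Sgca counts in all 6 libraries. Its call in shPkm1 was lost without either shPkm1 library, at a difference of -0.63. Most of the rise of Sgcd was assigned to the predicted transcript XM_006533307.3, with 116 and 83.5 counts in shScr, 837 and 775 in shPkm1, and 161 and 97.5 in the shPkm2-labelled libraries (log2 difference 2.84 in shPkm1, SE 0.342, adjusted p = 0.0146). That call was lost without either shPkm1 library, at differences of 2.75 and 2.9. The curated Sgcd transcript NM_011891.4 went from 26.9 and 20.3 counts in shScr to 132 and 119 in shPkm1.

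For Utrn, a predicted transcript was read almost only in the hairpin groups, while the gene's total hardly moved. XM_011243168.2 had 1.37 and 0.17 counts in shScr, 96.1 and 353 in shPkm1, and 587 and 387 in the shPkm2-labelled libraries. Its call in shPkm1 (adjusted p = 0.0205) was lost with only the groups compared in the fit (0.0599), with the replicate block (0.0631) and without any 1 library (0.0593 to 0.083). The call in the shPkm2-labelled pair (adjusted p = 0.0101) was lost without either control or shPkm2 replicate 1 (0.0514 to 0.053). Another Utrn transcript, XM_011243167.2, which did not pass the filter, had 0.01 and 550.3 counts in the pair labelled shPkm2, so reads of this gene were assigned differently between libraries of 1 group.

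Beyond the 8 members, 51 genes of the same pathway were followed in 4 lists, of which 50 were in the table and 44 were tested. In shPkm1 10 were higher and 18 lower than in shScr, with a median log2 difference of -0.16, beside 31.8% and 31.4% of all tested genes. The shPkm2-labelled libraries had 5 higher and 30 lower, with a median of -0.56, beside 33.9% and 34.2% of all genes. Against shPkm1 they had 6 higher and 21 lower, with a median of -0.40, beside 25.7% and 27.3%. All-gene medians were 0.00, 0.01 and 0.00. These counts depend on the scale: with library totals alone, 15 were higher and 14 lower in shPkm1, and with limma on log2(TPM + 1) 17 and 10, so that the balance in shPkm1 turned over. With library totals 9 were higher and 16 lower in the shPkm2-labelled libraries than in shScr, and with limma on log2(TPM + 1) 10 and 14, where the median of all genes stood 0.32 and 0.36 higher than under the main scaling. Of all calls against shScr, 50.3% for shPkm1 and 49.8% for the shPkm2-labelled pair were in the higher direction under the main scaling, 65.8% and 69.3% with library totals and 78.6% and 76.1% on log2(TPM + 1). Between the hairpin groups, pathway genes called higher were 3 without shPkm1 replicate 1 and 3 without shPkm2 replicate 1.

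**Figure D4:**
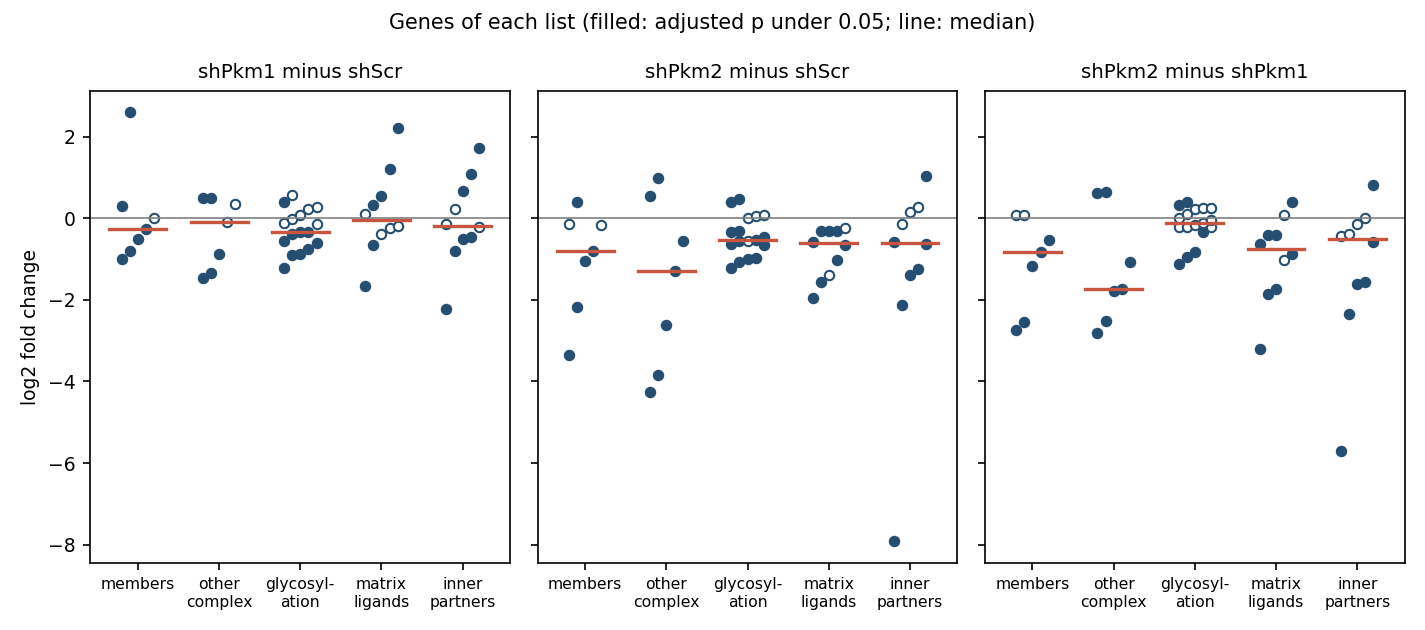
Log2 differences of the tested members and of the 4 pathway lists in the 3 comparisons, 1 point per gene, filled where the adjusted p is under 0.05, with a line at the median of the list. The lowest point is Cav3, at -7.92 in the shPkm2-labelled libraries (-9.6 to -5.3 over the alternatives).

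Among the other parts of the complex, 2 of 7 tested genes were higher and 3 lower in shPkm1, beside 31.8% and 31.4% of all genes, and 2 were higher and 5 lower in the shPkm2-labelled libraries against shScr, beside 33.9% and 34.2%. Against shPkm1 the counts were also 2 and 5, beside 25.7% and 27.3%. Sspn, sarcospan, a membrane protein bound to the sarcoglycans, rose in shPkm1 and fell in the shPkm2-labelled pair, at 47.0 ± 1.07, 66.4 ± 2.35 and 31.8 ± 0.472 CPM (0.50 and -0.56, adjusted p = 0.000539 and 0.000198). The fall of Sspn in the shPkm2-labelled libraries was -0.24 with library totals (adjusted p = 0.0587) and -0.10 on log2(TPM + 1) (adjusted p = 0.494).

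Sntb1 and Sntb2 are syntrophins, which dock signalling proteins to dystrobrevin, and they moved in opposite directions in the shPkm2-labelled libraries. Sntb1 fell in shPkm1 and in the shPkm2-labelled pair (log2 differences of -1.47 and -4.27 from shScr), from 58.3 ± 15.7 CPM (SD, n = 2) in shScr to 3.01 ± 0.206 in the shPkm2-labelled libraries; the second was -3.31 with limma on log2(TPM + 1). Sntb2, the utrophin-associated form at the neuromuscular junction, rose by 0.55 in the shPkm2-labelled libraries (adjusted p = 0.000814), and its difference in shPkm1 was -0.09 (adjusted p = 0.526; 0.11 with library totals). Dtnb, the dystrobrevin of non-muscle tissue, rose by 0.99 in the shPkm2-labelled libraries (adjusted p = 8.25e-05), opposite in direction to Dtna. Its difference in shPkm1 was 0.36 (adjusted p = 0.0685) and passed the threshold with library totals (0.55, adjusted p = 0.0127). Drp2, a short dystrophin relative, rose in shPkm1 and fell in the shPkm2-labelled pair (0.49 and -1.30). The first was 0.25 without shScr replicate 2 (adjusted p = 0.0522) and 0.48 without shPkm1 replicate 1 (adjusted p = 0.0524), and the second was -0.70 with limma on log2(TPM + 1).

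Of 17 tested genes that build the laminin-binding sugar of dystroglycan, 1 was higher and 9 lower in shPkm1, beside 31.8% and 31.4% of all genes, and 2 were higher and 11 lower in the shPkm2-labelled libraries, beside 33.9% and 34.2%, with medians of -0.33 and -0.54. Against shPkm1, the shPkm2-labelled libraries had 2 higher and 4 lower, beside 25.7% and 27.3%. Pomgnt1 and Pomgnt2, which extend the core mannose, fell in both: Pomgnt1 had -0.89 and -1.06 and Pomgnt2 -1.22 and -1.0. Dolk, the kinase that makes dolichol phosphate for the mannose donor, also fell in both (-0.87 and -0.98, adjusted p = 1.76e-05 and 4.26e-06).

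Some further calls in this list were lost when a library was left out, a fit that leaves 1 library in its group. Gmppb, which makes the mannose donor, had 0.41 in shPkm1 (adjusted p = 0.0234). That call was lost without shScr replicate 1 (0.27), without shPkm1 replicate 2 (0.26) and in DESeq2 (0.41, adjusted p = 0.0615). In the shPkm2-labelled libraries Gmppb was at -0.54 from shScr (adjusted p = 0.00611), lost with library totals (-0.22, adjusted p = 0.233), in the limma fits on TPM (-0.08) and without shPkm2 replicate 1 (-0.48, adjusted p = 0.0541). It was -0.95 between the hairpin groups (adjusted p = 0.000109; -1.1 to -0.8 over the alternatives). Pomt1, a subunit of the mannosyltransferase that starts the chain, rose by 0.39 in the shPkm2-labelled libraries against shScr (adjusted p = 0.00753; 0.29 to 0.87 over the alternatives). Against shPkm1, Pomt1 was at 0.41, Pomt2 at 0.33 and Dpm1 at -0.34 (adjusted p = 0.00696, 0.0172 and 0.0438). The call of Pomt1 was lost without shPkm1 replicate 1 or either library labelled shPkm2 (0.37 to 0.41). Those of Pomt2 and Dpm1 were lost without any of the 4 libraries (0.30 to 0.35 and -0.40 to -0.28). Dpm1 also lost its call with library totals (-0.21, adjusted p = 0.183), in DESeq2 (-0.34, adjusted p = 0.0778) and in the limma fits on TPM (-0.27 to -0.26). Pomt2 lost its call in DESeq2 (0.33, adjusted p = 0.0553) and with limma on log2(TPM + 0.1) (0.39, adjusted p = 0.0729) or without a filter (0.36, adjusted p = 0.0692).

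Of 10 tested matrix ligands and their relatives, 4 were higher and 2 lower in shPkm1, beside 31.8% and 31.4% of all genes. In the shPkm2-labelled libraries against shScr 0 were higher and 8 lower, beside 33.9% and 34.2%, with 0 higher also at an unadjusted p under 0.05 in edgeR and in DESeq2. Against shPkm1, 1 was higher and 7 lower, beside 25.7% and 27.3%. Lama2, the laminin chain of adult muscle basement membrane, had 70.5 ± 2.67 CPM in the controls (SD, n = 2), 59.9 ± 0.796 under the Pkm1 hairpin and 18.2 ± 2.14 in the shPkm2-labelled libraries. Its difference was -0.24 in shPkm1 (adjusted p = 0.0616; 0.027 without shScr replicate 1) and -1.96 in the shPkm2-labelled libraries (adjusted p = 4.84e-09; -1.29 with limma on log2(TPM + 1)). Agrn, agrin, which clusters acetylcholine receptors, was lower by like amounts in both, at 258 ± 3.22, 82.3 ± 1.28 and 87.2 ± 0.238 CPM (-1.65 and -1.57, adjusted p = 1.44e-08 and 8.58e-09; 95% interval between the hairpin groups -0.12 to 0.29). Bgn, biglycan, a proteoglycan that binds dystroglycan and sarcoglycans, rose in shPkm1 from 1335 ± 241 to 6159 ± 0.775 CPM and was at 665 ± 0.227 in the shPkm2-labelled libraries (2.21 and -1.01, adjusted p = 5.88e-08 and 3.53e-05). The second difference of Bgn was -0.54 with limma on log2(TPM + 1) without a filter (adjusted p = 0.0656). Lama1 rose by 1.2 and Lamc1 by 0.56 in shPkm1, and Lama5 fell by 0.65 there. Lama1 was at -0.65 and Lamc1 at -0.31 from shScr in the shPkm2-labelled libraries (adjusted p = 0.0127 and 0.016). The call of Lama1 was lost with library totals (-0.33, adjusted p = 0.182), in the limma fits on TPM (-0.18 to -0.09), without shScr replicate 2 (-0.46, adjusted p = 0.0591) and without shPkm2 replicate 2 (-0.45, adjusted p = 0.131). That of Lamc1 was lost without shPkm2 replicate 2 (-0.23, adjusted p = 0.179), and its sign changed with library totals (0.01) and in the limma fits (0.14). Directly compared, the shPkm2-labelled libraries differed from shPkm1 by -1.86 for Lama1 (-1.08 with limma on log2(TPM + 1)) and -0.87 for Lamc1 (adjusted p = 2.92e-06 and 1.13e-05). Lama5 was at -0.23 from shScr in the shPkm2-labelled libraries (adjusted p = 0.0978; -0.38 and 0.00133 without shScr replicate 1), and 0.09 with library totals. The shPkm1 fall of Lama5 was not called with limma on TPM at either pseudocount or without a filter (-0.24 to -0.23, adjusted p = 0.238 to 0.371). Lama5 was 0.41 higher in the shPkm2-labelled libraries than in shPkm1. That call was lost without shPkm1 replicate 1 or 2 or shPkm2 replicate 1 (0.37, 0.45 and 0.29). It was also lost with limma on log2(TPM + 0.1) (0.47, adjusted p = 0.0925) and on log2(TPM + 1) without a filter (0.45, adjusted p = 0.129).

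Among 10 tested partners on the inner face, 3 were higher and 4 lower in shPkm1, near the 31.8% and 31.4% of all genes. In the shPkm2-labelled libraries 1 was higher and 6 lower than in shScr, beside 33.9% and 34.2%, and 1 higher and 5 lower than in shPkm1, beside 25.7% and 27.3%. Cav3, the muscle caveolin, had 921 and 452 estimated counts in shScr, 164 and 183 in shPkm1, and 1 and 6 in the shPkm2-labelled libraries, with log2 differences of -2.22 and -7.92 (adjusted p = 2.63e-05 and 2.42e-08). The size of these falls was loosely set: the first was -1.5 without shScr replicate 1, and the second was -7.21 without shScr replicate 1, -7.15 and -9.6 without shPkm2 replicate 1 and 2, and -5.3 with limma on log2(TPM + 1). Nos1, the neuronal nitric oxide synthase, had only 6 to 32 counts in a library. Its differences of 1.08 and -1.25 (adjusted p = 0.0203 and 0.0309) were lost in DESeq2 (adjusted p = 0.148 and 0.129). They were 0.22 and -0.06 with limma on log2(TPM + 1), where the added 1 shrinks differences between values of 0.05 to 0.32 TPM. Without single libraries these calls of Nos1 were lost too, at 0.80 without shScr replicate 1, 0.99 and 1.19 without shPkm1 replicate 1 and 2, and, for the second, -0.87 without shScr replicate 2 and -1.35 to -1.15 without any of the hairpin libraries. Des, desmin, fell in both (-0.51 and -2.13), and the first was lost without shPkm1 replicate 1 (-0.41, adjusted p = 0.0862) and was -0.12 in all 3 limma fits on TPM (adjusted p = 0.28 to 0.427). Sync, syncoilin, which joins dystrobrevin to desmin, fell in both (-0.80 and -1.39). Synm, synemin, rose by 1.72 in shPkm1 and was at 0.15 in the shPkm2-labelled libraries (adjusted p = 0.541), which passed the threshold with limma on log2(TPM + 0.1) (0.56, adjusted p = 0.0469). Ank3, an ankyrin that helps place dystrophin, rose by 0.67 in shPkm1. Its difference in the shPkm2-labelled libraries was 0.28 (adjusted p = 0.145), from -0.01 without shScr replicate 2 to 0.64 without shScr replicate 1 (adjusted p = 3.61e-05), and 0.62 with library totals (adjusted p = 0.00337). Actg1, gamma-actin, rose by 1.03 in the shPkm2-labelled libraries. In shPkm1 it was at 0.22 (adjusted p = 0.178), which passed the threshold with library totals (0.41, adjusted p = 0.014), in the limma fits on TPM (0.61) and without shScr replicate 2 (0.32, adjusted p = 0.0233).

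The genes with profiles most like each member were found by the distance between centred log2 CPM profiles over the 6 libraries, among 10749 genes. For Sgcd, the nearest was Cacna1g, a calcium channel, at a distance of 0.402, farther than the nearest gene of any other tested member. For Dag1 the nearest were Adam19 (0.165), Fam214b (0.166) and Itga7 (0.168), the last of these the muscle laminin receptor subunit. For Sgca they were Mmp15 (0.152), Kcnn3 (0.191) and Grtp1 (0.239), and for Sgcb Runx1 (0.121), Abhd14a (0.14) and Arid5a (0.156). Among the nearest for Dtna were Tob1 (0.15) and Sccpdh (0.152). Utrn and Sgce, whose log2 differences between groups were at most 0.39 in size, had the near neighbours Strn4 at 0.0709 and Stimate at 0.0757. No member was among the 3 nearest genes of another.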

How the data were processed

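RNA was measured in 6 libraries, 2 per group, assigned by their titles. The deposited table has 57920 RefSeq transcripts with, per the file headers, an estimated count, an FPKM and a TPM value per library. The submitters' processing notes name HISAT, StringTie, Bowtie, RSEM, DESeq2 and mm10, with no versions or order. The authors' FPKM values and 9 columns of group means were not used; every count and TPM column of a library was used. TPM values, scaled by the authors to transcript length, were summed per gene.

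Estimated counts were summed per NCBI gene and rounded; 17445 of 17558 genes matched a symbol and 113 kept their number. Genes were filtered with filterByExpr (minimum count 10, minimum total 15) and tested with the quasi-likelihood F-test of edgeR 4.0.16 (R 4.3.3) on all 6 libraries, with TMM scaling and Benjamini-Hochberg adjustment over 12643 genes; an adjusted p under 0.05 is a call. Tests were two-sided, and standard errors are the absolute log2 difference over the root of F. The biological coefficient of variation was 0.0851. Gene coordinates are those of RefSeq on GRCm38.p6. Promoter motifs were searched by letters. The code was tested on simulated counts.

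The members and lists were chosen with earlier results of these data known. Named were the 8 members, 8 genes fixed in the lists and, per list and comparison, up to 3 risen and 3 fallen genes with the largest change, a mean of at least 50 counts and groups that do not overlap; some genes of this rule are not reported here. Alternatives were DESeq2 size factors, library totals, no filter, DESeq2 1.42.0, fits of 2 groups, the replicate number as a block, leaving out each library, and limma 3.58.1 on log2(TPM + 1) and log2(TPM + 0.1).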

Additional observations from a re-analysis of the deposited data

How the results depend on the processing

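Precision is limited by 2 libraries per group and, for Dmd and Nos1, by depth, at 18216896 to 19796036 estimated counts per library. For the members, 281 values kept direction and side of the threshold under the alternatives, 18 lost the call, 3 gained one and 13 changed sign; Dag1, Sgca and Sgcd in shPkm1 and Dag1 and Sgca in the shPkm2-labelled libraries kept both under every one run; where values moved, the cause was not tested.

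The replicate numbers did not pair the libraries: deviations from the group means correlated at -0.0256, 0.0418 and 0.0527 between groups. With the replicate block, member transcripts called higher in shPkm1 and in the shPkm2-labelled libraries against shScr were 1 and 1 instead of 2 and 2, and members called lower in shPkm1 were 3 instead of 4.

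On TPM with limma, members lower in shPkm1 were 2 at each pseudocount and without a filter. Pathway genes there were 17, 16 and 17 higher and 10, 10 and 11 lower, and in the shPkm2-labelled libraries 10, 10 and 10 higher and 14, 14 and 13 lower; with library totals the latter were 9 and 16. DESeq2 called 5 member transcripts higher and 8 lower in shPkm1, and 1 higher between the hairpin groups. Member transcripts higher with only the groups compared were 1 in shPkm1 and 1 in the shPkm2-labelled libraries, and 1 in the latter without a filter.

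Leaving out single libraries, members higher in shPkm1 ranged from 1 to 2, member transcripts from 0 to 2 higher and 0 to 2 lower in shPkm1, 0 to 2 higher and 7 to 9 lower in the shPkm2-labelled libraries, and 1 to 8 lower between the hairpin groups, where pathway genes higher ranged from 3 to 8. The full-length share of Dmd in shPkm1, 37.8% as a mean, was 18.8% of TPM and 100% of curated transcripts, and 27.8% to 47.9% over single libraries.

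Signs changed as follows. With library totals, Utrn was 0.17, Sgcd 0.20, Lamc1 0.01 and Lama5 0.09 in the shPkm2-labelled libraries, and Sntb2 0.11 in shPkm1. On log2(TPM + 1), log2(TPM + 0.1) and without a filter, shPkm1 values were 0.08, 0.08 and 0.08 for Utrn, 0.25, 0.29 and 0.25 for Sntb2, and 0.14, 0.15 and 0.14 for Lama2, and values of the shPkm2-labelled libraries were 0.24, 0.25 and 0.24 for Utrn, 0.14, 0.14 and 0.14 for Lamc1, and 0.22, 0.22 and 0.22 for Lama5. Leaving out single libraries, Sgcb in shPkm1 ranged from -0.05 to 0.11, Sgcd in the shPkm2-labelled libraries from -0.43 to 0.17, the Sgcd transcript XM_006533307.3 there from -0.32 to 0.41, Synm there from -0.02 to 0.37, Ank3 there from -0.01 to 0.64, and Utrn between the hairpin groups from -0.01 to 0.17.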
